A study of Mus musculus with 9 samples.

Results

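A set of 10 cytokine and chemokine genes was followed through the trigeminal ganglion after injection of the temporomandibular joint (TMJ) with complete Freund's adjuvant (CFA), an oil emulsion with killed mycobacteria that inflames the joint. They were Tnf, Il1b, Il6, Ccl2, Cxcl10, Cxcl12, Cx3cl1, Il33, Il34 and Il18, a list fixed by gene name, and they are 10 of the 21809 gene names in the mRNA table. Each gene's value is the sum of the FPKM values (fragments scaled to transcript length and to the fragments mapped in the library) of its annotated transcripts. All mice were 8-week-old male C57BL/6 mice labelled WT, injected on one side. Saline mice received 10 µl of saline and were taken at day 3. CFA3D mice received 10 µl of CFA at 5 mg/ml and were taken at day 3, and CFA6D mice received the same dose and were taken at day 6. Every group had 3 libraries, each made from ganglion punches pooled from 3 mice, so n = 3 pools and not 9 animals in every value below. No saline group at day 6 was analysed here, so CFA6D differs from saline in day as well as in treatment.

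Cytokines and chemokines are secreted signals that act over short distances between immune cells, glia and neurons. TNF, IL-1β and IL-6 are made mainly on demand by activated immune cells and glia, and in sensory ganglia they are known to make nociceptors more excitable. CCL2 draws monocytes through CCR2, and CXCL10 draws T cells through CXCR3. The others are largely made at rest: IL-34 feeds macrophages through CSF1R, CX3CL1 (fractalkine) tethers cells that carry CX3CR1, CXCL12 signals through CXCR4 and ACKR3, IL-33 is stored in nuclei and released on damage, and IL-18 is stored as a precursor that caspase-1 cuts.

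Promoter sequence is shown for 3 genes that carry the same NF-κB motif, and their values are given further on. The windows are the 250 bases before the annotated start (RefSeq, GRCm38.p6), and 8 of the 10 genes had such a window. The κB consensus, searched on both strands, was present in the windows of 2 of these 8 genes, Il6 and Cxcl10, and in 7.25% of 32851 windows of the same length over the genome. Capitals mark the κB matches, which in Cxcl10 form 2 stretches, the second holding overlapping matches. Nfkbia, which encodes the inhibitor IκBα and is itself switched on by NF-κB, is given beside them. It belongs to a list of 12 response genes followed below, of which 8 had a window and 3 a match. The others with a match, Nfkb2 and Tnfaip3, are not printed. A match describes the letters only.
Il6 promoter, chr5:30012864-30013113, plus strand: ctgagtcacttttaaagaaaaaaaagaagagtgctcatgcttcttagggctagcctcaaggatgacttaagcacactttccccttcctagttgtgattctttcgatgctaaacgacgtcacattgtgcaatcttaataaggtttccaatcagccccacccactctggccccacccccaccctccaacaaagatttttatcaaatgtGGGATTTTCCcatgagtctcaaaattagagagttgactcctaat
Cxcl10 promoter, chr5:92348890-92349139, minus strand: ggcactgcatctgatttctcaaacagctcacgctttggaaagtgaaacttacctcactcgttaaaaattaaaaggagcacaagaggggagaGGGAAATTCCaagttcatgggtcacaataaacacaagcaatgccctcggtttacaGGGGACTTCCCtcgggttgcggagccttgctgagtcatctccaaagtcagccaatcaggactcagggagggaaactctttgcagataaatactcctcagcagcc
Nfkbia promoter, chr12:55492648-55492897, minus strand: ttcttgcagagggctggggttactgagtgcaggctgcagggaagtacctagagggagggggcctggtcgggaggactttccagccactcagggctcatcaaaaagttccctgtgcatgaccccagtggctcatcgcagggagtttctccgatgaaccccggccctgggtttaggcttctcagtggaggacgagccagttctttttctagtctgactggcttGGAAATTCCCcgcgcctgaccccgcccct
The Cxcl10 window also held the interferon-stimulated response element core (either strand), which occurred in 2.98% of all windows and in no other window of the 8 genes.

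Cxcl12 was read as 3 coding transcripts that share their first 267 coding bases and differ in how the reading frame ends, and their values are given further on. Each line gives the last 30 shared bases in lower case and the bases particular to that transcript, stop codon included, in capitals (GENCODE transcripts, plus strand of chromosome 6).
ENSMUST00000112866: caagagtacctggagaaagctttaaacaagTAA
ENSMUST00000112871: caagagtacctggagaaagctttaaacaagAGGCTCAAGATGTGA
ENSMUST00000073043: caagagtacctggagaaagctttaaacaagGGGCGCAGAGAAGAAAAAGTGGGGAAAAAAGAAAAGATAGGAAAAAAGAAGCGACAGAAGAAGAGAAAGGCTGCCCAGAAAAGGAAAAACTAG
The encoded proteins have 89, 93 and 119 amino acids in that order.

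The steps between low FPKM values of genes with 1 annotated transcript gave what 1 read pair was worth, which corresponds to about 30000000 to 42200000 read pairs per library, and the approximate read pairs behind each member below come from it. Every marker list was detected in full in all 9 pools. This held for trigeminal neuron, satellite glia and Schwann cell markers, and also for pituitary and skeletal muscle markers. Libraries stood apart within their groups. CFA6D pool 6 held 2723 FPKM over 9 neutrophil markers, against 25.8 to 142 FPKM in the other 8 pools, of which the other 2 CFA6D pools were the highest. Saline pool 3 held 10610 FPKM over 4 pituitary markers, against 8.67 to 1113 FPKM in the others. Saline pool 2 held 105.9 FPKM over 4 skeletal muscle markers, against 0.658 to 40.8 FPKM in the others. CFA3D pool 2 had the highest summed macrophage markers, 137 FPKM against 54.2 to 109 FPKM, and the highest summed fibroblast markers, 601 FPKM against 298.5 to 508 FPKM. In bulk tissue, fewer cells of a type and less RNA per cell cannot be told apart.

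The members differed widely in level. Il34, Il33, Cxcl12, Cx3cl1 and Il18, the members with the highest means, together gave 84.2% to 94.5% of the summed FPKM of the 10 genes in each pool. Averaged over the 9 pools, Il34 (9.90 FPKM) led Il33 (8.27), Cxcl12 (7.37), Cx3cl1 (4.11), Il18 (2.98), Cxcl10 (1.39), Ccl2 (1.06), Il1b (0.621), Tnf (0.255) and Il6 (0.0543 FPKM). FPKM is per length, so levels can be set side by side between genes. The sums count every annotated transcript, coding or not. For Il34, noncoding processed transcripts averaged 1.24, 0.515 and 0.0814 FPKM and coding transcripts 6.64 and 1.41 FPKM. The Il33 transcripts are all annotated as coding, so the lead of Il34 over Il33 depends on counting the noncoding entries. No neighbours in this order kept their places in all 9 pools: the steps held in 6 pools for Il33 over Cxcl12 and for Cxcl10 over Ccl2, in 7 pools for Il34 over Il33, Cx3cl1 over Il18 and Tnf over Il6, and in 8 pools for the remaining 4 steps. Among the 16096 gene sums that averaged 0.1 FPKM or more, Il34 stood at the 65.7th percentile of mean FPKM, Cxcl10 at the 22nd and Tnf at the 6.33rd.

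**Figure D1:**
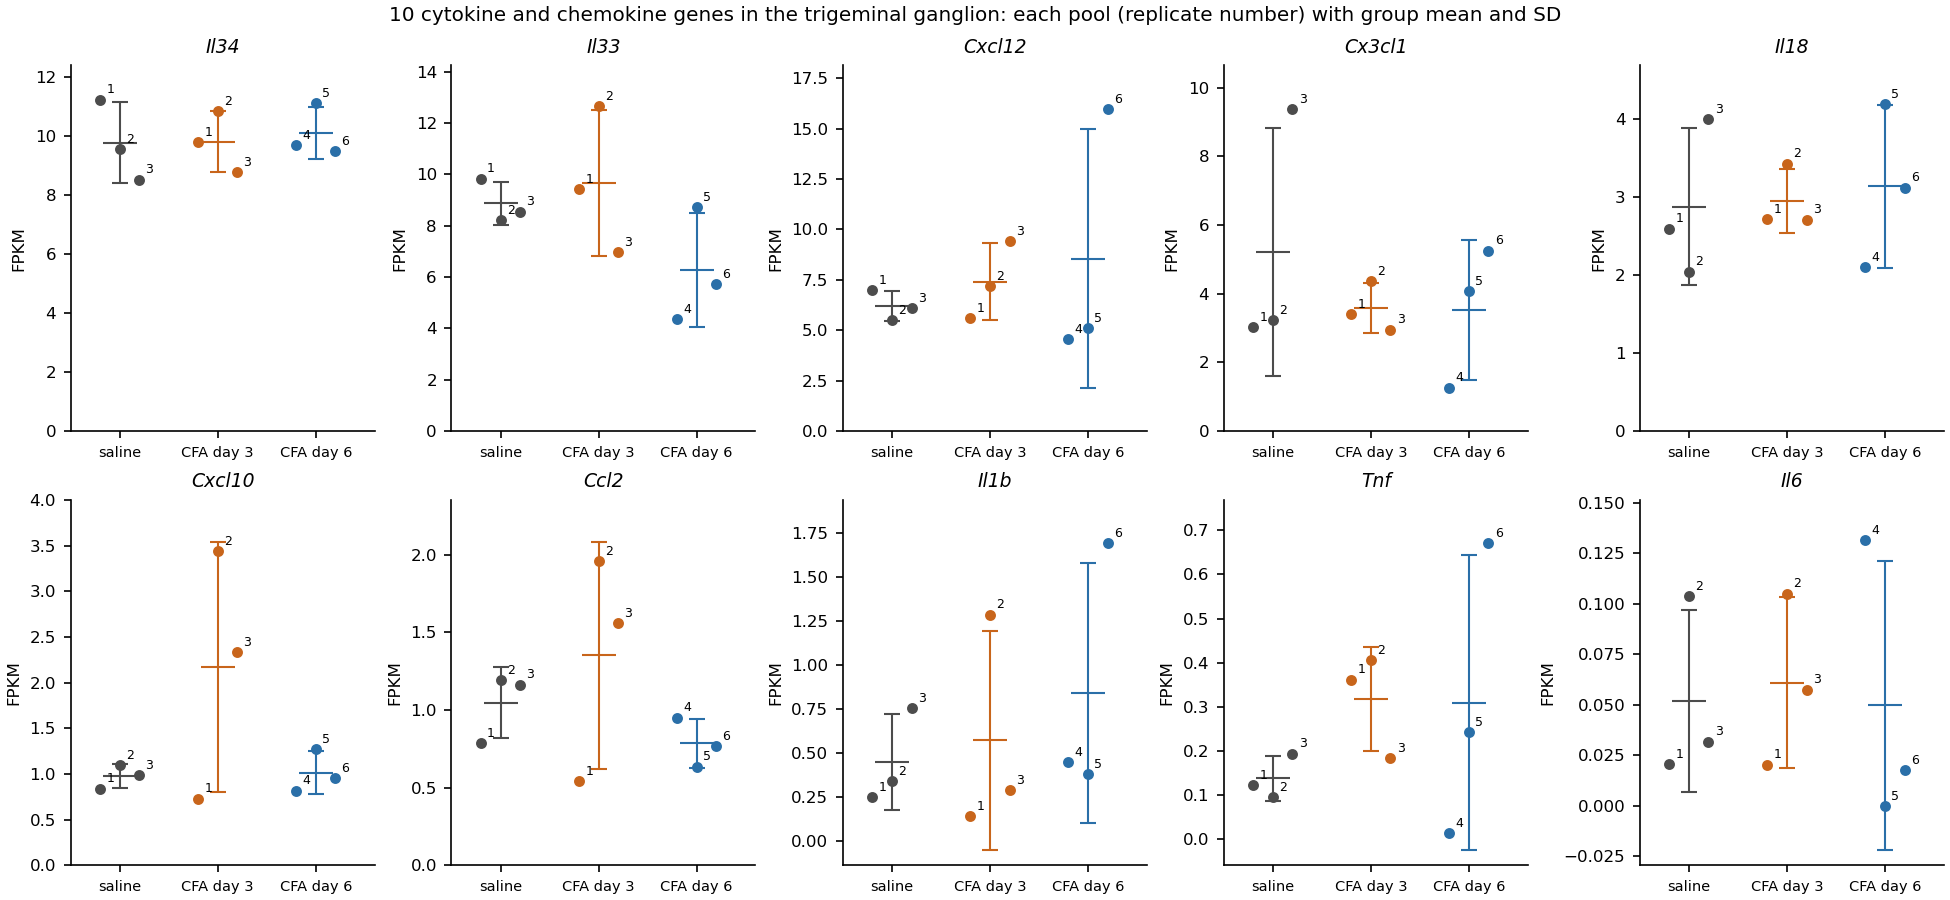
FPKM (vertical axes, each on its own scale from 0 or below) of the 10 genes in saline, CFA3D and CFA6D; points are pools with their replicate number, bars are the group mean and SD (n = 3). Il34 stays between 8.52 and 11.2 FPKM, while Cxcl10, Ccl2, Il1b and Tnf are spread by 1 or 2 high pools.

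No gene of the 10 passed the test against saline at either day. Gene sums were compared with limma on log2(FPKM + 0.1), and a call needed an unadjusted p under 0.05 with a log2 difference of at least 1. Of the 9 members that could be tested (Il6 lay under the minimum mean of 0.1 FPKM), 0 were called in CFA3D against saline, where 0.342% of all gene sums were called, 0 in CFA6D against saline (0.584% of all) and 0 in CFA6D against CFA3D (0.77% of all). Without the fold minimum, limma gave an unadjusted p under 0.05 to 0 of 9, 0 of 9 and 1 of 9 members, against 4.45%, 11.1% and 7.39% of all gene sums. In none of the 3 comparisons were the groups free of overlap for any member, against 9.13%, 16.2% and 16.7% of all gene sums. The median log2 difference of the 9 was 0.09, 0.05 and -0.22, and that of all gene sums was 0.05, 0.03 and -0.02. No gene sum of the whole table had an adjusted p (Benjamini-Hochberg over 16096 gene sums) under 0.05 in any of the 3 comparisons. The absence of a call does not show that levels were equal, and the intervals differ widely between genes.

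**Figure D2:**
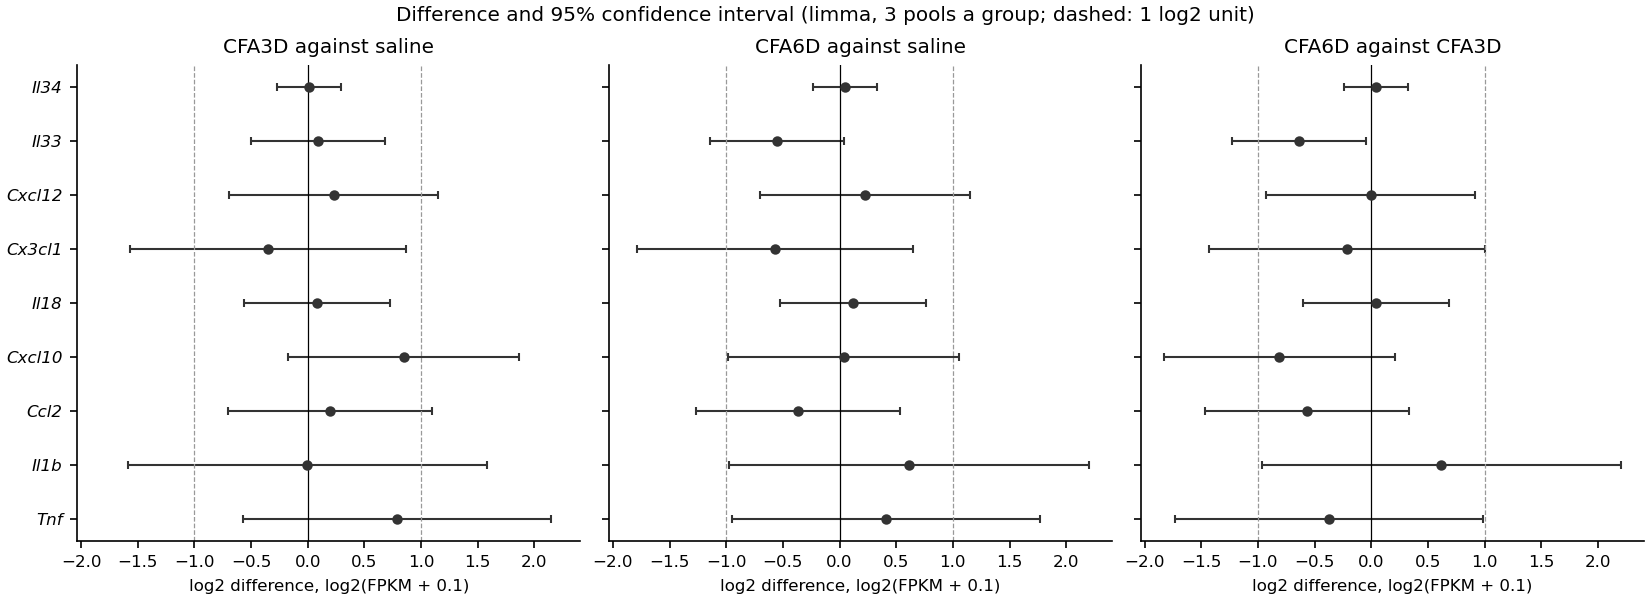
Log2 difference on the log2(FPKM + 0.1) scale with its 95% confidence interval for the 9 tested genes in the 3 comparisons (limma, 3 pools a group); dashed lines mark 1 log2 unit. Il34 has the narrowest intervals and Il1b the widest, and the interval of Il33 in CFA6D against CFA3D ends just below 0.

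Il34, one of the ligands of the macrophage receptor CSF1R, was the steadiest of the 10. It is annotated at chr8:110741829-110805924 on the minus strand. It measured 11.2, 9.57 and 8.52 FPKM in saline, 9.81, 10.8 and 8.78 FPKM in CFA3D and 9.69, 11.1 and 9.49 FPKM in CFA6D, on about 400.0 to 672 read pairs a library. The groups lay on top of each other, and the highest pool was only 1.32 times the lowest. The log2 difference from saline was 0.01 (95% interval -0.27 to 0.29) in CFA3D and 0.05 (-0.23 to 0.33) in CFA6D, so a change of 1 log2 unit in either direction lay outside both intervals.

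Cx3cl1, the membrane-bound chemokine of neurons, was spread within groups. It measured 3.03, 3.23 and 9.37 FPKM in saline, 3.40, 4.37 and 2.95 FPKM in CFA3D and 1.26, 4.07 and 5.25 FPKM in CFA6D. Saline pool 3, the pool with the high pituitary markers, was higher than every other pool, and CFA6D pool 4 was the lowest of all. The log2 difference from saline was -0.35 (SE 0.54) in CFA3D and -0.57 (SE 0.54) in CFA6D. Without saline pool 3, the CFA3D difference turned to 0.17, and without CFA6D pool 4 the CFA6D difference turned to 0.03; the part of other tissue in these pools was not tested.

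Il18, the precursor cytokine cut by caspase-1, measured 2.59, 2.04 and 3.99 FPKM in saline, 2.71, 3.42 and 2.71 FPKM in CFA3D and 2.09, 4.18 and 3.12 FPKM in CFA6D. The groups overlapped over nearly their whole ranges, and the log2 differences from saline were 0.08 and 0.12 (SE 0.29 each). Il18 overlaps Bco2 and Tex12 on the opposite strand (mean 0.358 and 0.0985 FPKM). Whether strand was used in the counting is not given in the sources used here.

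Il33, the nuclear alarmin of stromal and glial cells, was the only member with a p under 0.05. It measured 9.84, 8.22 and 8.55 FPKM in saline, 9.42, 12.6 and 6.97 FPKM in CFA3D and 4.35, 8.72 and 5.74 FPKM in CFA6D. CFA6D pools 4 and 6 lay below every other pool, while pool 5 lay among the saline values. CFA6D was lower than CFA3D by a log2 difference of -0.63 (SE 0.26, 95% interval -1.23 to -0.04, limma unadjusted p = 0.0379, adjusted p = 0.666), where 4.34% of all gene sums were lower at that p, and its difference from saline was -0.55 (SE 0.26, unadjusted p = 0.0657, adjusted p = 0.491). In CFA6D against CFA3D the p lay above 0.05 when any of 7 of the 9 libraries was left out, reaching 0.147 without CFA3D pool 2 and 0.144 without CFA6D pool 4. The summed fibroblast markers were also lowest in CFA6D pool 4 (298.5 FPKM) and highest in CFA3D pool 2 (601 FPKM), but were 508 FPKM in CFA6D pool 6, where Il33 was low. The summed satellite glia markers measured 250.3, 338 and 296 FPKM in the CFA6D pools and were highest in CFA3D pool 2 (353 FPKM). The part of either list in the Il33 values was not tested. The main transcript, ENSMUST00000025724, carried 88.2% of the Il33 signal. It measured 3.93, 7.27 and 5.15 FPKM in CFA6D, below the saline pools at 7.36 to 8.74 FPKM, pool 5 only just. Its log2 difference from saline was -0.57 (SE 0.26, limma unadjusted p = 0.0607, adjusted p = 0.752). A lack of overlap between these groups held for 12.2% of all transcripts.

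Cxcl12, the ligand of CXCR4 and ACKR3, measured 6.99, 5.49 and 6.07 FPKM in saline, 5.603, 7.17 and 9.41 FPKM in CFA3D and 4.56, 5.11 and 15.95 FPKM in CFA6D. Its 2 highest pools, CFA6D pool 6 and CFA3D pool 3, were high through different transcripts. The transcript with the longest coding end, ENSMUST00000073043, ranged only from 2.74 to 4.81 FPKM over the 9 pools. The transcript of the 93-residue form, ENSMUST00000112871, measured 9.43 FPKM in CFA6D pool 6, where it made up 59.1% of the gene, against 0.442 to 1.28 FPKM in the other 8 pools. The transcript of the 89-residue form, ENSMUST00000112866, measured 3.91 FPKM in CFA3D pool 3, 41.6% of the gene, against 0.00925 to 0.0915 FPKM elsewhere. Each high value stood in 1 pool of 3, and neither transcript passed the test in any comparison. In CFA3D, ENSMUST00000112871 lay below saline without overlap, at 0.483, 0.731 and 0.609 against 1.28, 1.06 and 1.05 FPKM (log2 difference -0.80, SE 0.86). A lack of overlap there held for 6273 of 66206 transcripts. In CFA6D, ENSMUST00000112866 lay above saline, at 0.0381 to 0.0915 against 0.0124 to 0.0192 FPKM, where 12.2% of all transcripts did not overlap. The log2 difference of the gene sum from saline was 0.22 in CFA6D and -0.34 without CFA6D pool 6, the pool with the high neutrophil markers; without that pool, CFA6D against CFA3D went from -0.01 to -0.57 (limma unadjusted p = 0.0206, adjusted p = 0.823). How reads were divided between the transcripts is not given in the sources used here.

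Single transcripts of Il34 and Il18 passed the test where the gene sums did not. Of 39 annotated transcripts of the 10 genes, 25 averaged 0.1 FPKM or more. Of these 25, 1 was called in CFA3D against saline, 1 in CFA6D against saline and 2 in CFA6D against CFA3D, against 2.18%, 2.56% and 2.23% of all transcripts tested. The Il34 transcript ENSMUST00000150680 measured 2.43, 2.65 and 1.10 FPKM in saline, 1.10, 0.263 and 0.124 FPKM in CFA3D and 1.36, 1.97 and 1.71 FPKM in CFA6D. It fell in CFA3D against saline (log2 difference -2.14, SE 0.59, limma unadjusted p = 0.00574, adjusted p = 0.989) although CFA3D pool 1 touched the saline range, and was higher in CFA6D than in CFA3D (1.94, SE 0.59, limma unadjusted p = 0.00971, adjusted p = 0.916) with no overlap, as were 12.0% of all transcripts. The Il18 transcript ENSMUST00000059081 measured 0.0162, 0.0204 and 0.187 FPKM in saline, 0.164, 0.0258 and 0.00858 FPKM in CFA3D and 0.212, 0.446 and 0.428 FPKM in CFA6D. It rose in CFA6D against saline (1.49, SE 0.51, limma unadjusted p = 0.0173, adjusted p = 0.65) and against CFA3D (1.55, SE 0.51, unadjusted p = 0.0147, adjusted p = 0.916) without overlap in either, which held for 12.2% of all transcripts against saline. The values rest on at most 11.8 read pairs a library, and the call against saline was lost without saline pool 1, saline pool 2 or CFA6D pool 6. A second Il18 transcript, ENSMUST00000180021, is annotated with the same start, end, length and number of exons. It carried 57.6% of the Il18 signal and differed in CFA6D by -0.08 from saline and by -0.12 from CFA3D. How reads were divided between these near-identical entries is not given, so the rise of 1 of them may not be a rise of Il18.

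**Figure D3:**
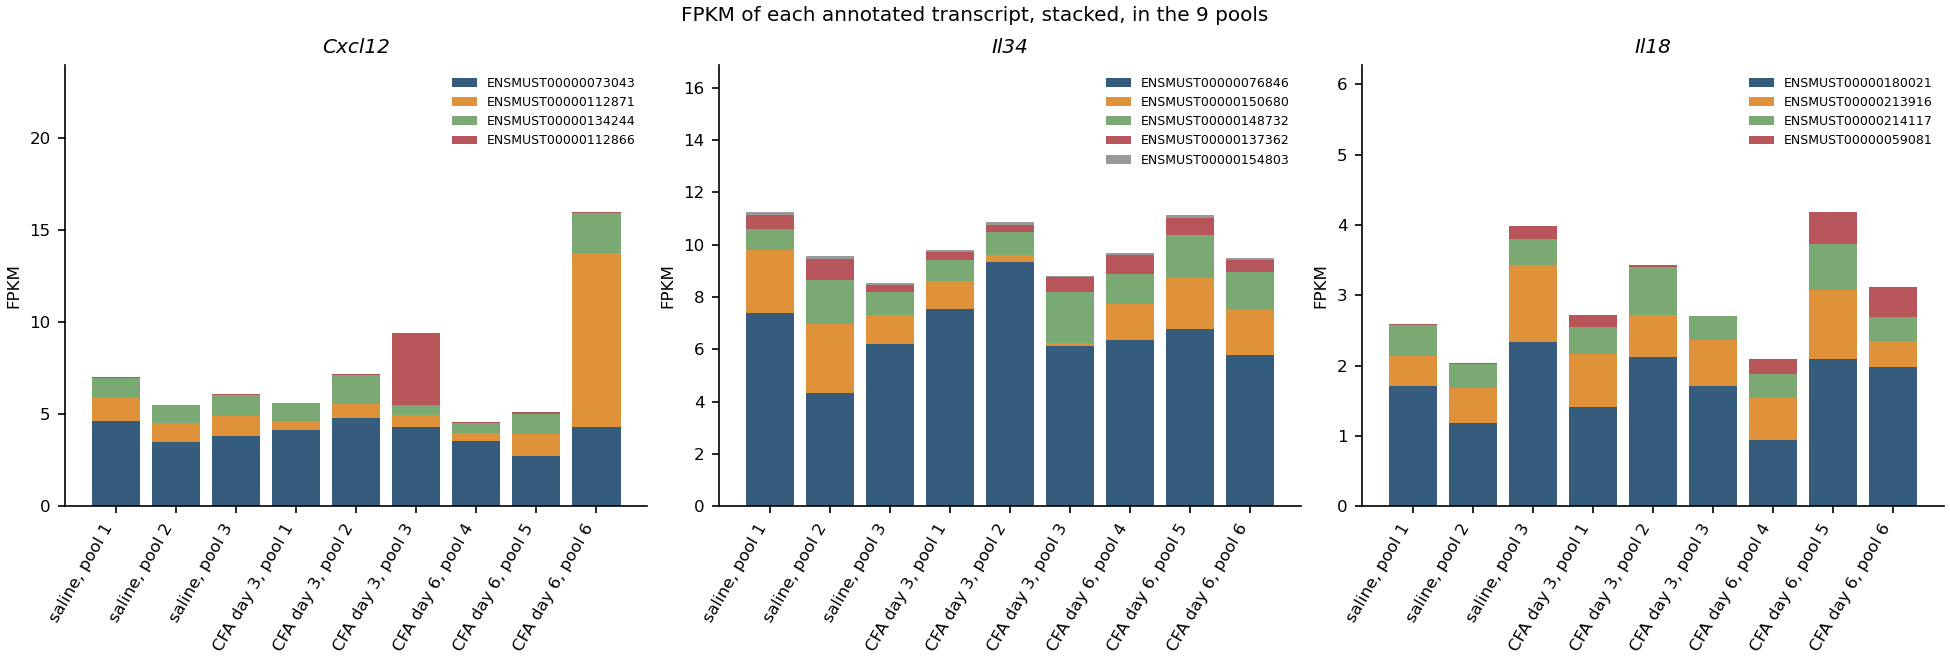
Stacked FPKM of every annotated transcript of Cxcl12, Il34 and Il18 in each of the 9 pools (horizontal axis); colours name transcripts within a panel. In Cxcl12, CFA6D pool 6 is high through ENSMUST00000112871 (9.43 FPKM) and CFA3D pool 3 by ENSMUST00000112866 (3.91 FPKM), while the total of Il34 stays near 10 FPKM as its transcripts shift.

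Cxcl10, the T cell chemokine that interferons induce, was high in 2 of 3 CFA3D pools. It measured 0.839, 1.10 and 0.990 FPKM in saline, 0.730, 3.44 and 2.34 FPKM in CFA3D and 0.818, 1.27 and 0.953 FPKM in CFA6D. CFA3D pools 2 and 3 exceeded all other pools, and CFA3D pool 1 was the lowest of the 9. The log2 difference from saline in CFA3D was 0.85 (SE 0.45, limma unadjusted p = 0.0928, adjusted p = 0.997). Without CFA3D pool 1 it was 1.46 (unadjusted p = 0.000447, adjusted p = 1.0), which would have been a call, and without CFA3D pool 2 it was 0.41. In CFA6D the difference from saline was 0.04 (SE 0.45). The 6 T cell markers summed to 1.79, 3.24 and 1.16 FPKM in the CFA3D pools and to 1.58 to 2.55 FPKM in saline, and their part in the Cxcl10 values was not tested. Cxcl10 lies at chr5:92346638-92348889 on the minus strand, and overlaps Art3 on the plus strand, which had a mean of 37.6 FPKM; whether strand was used in the counting is not known here.

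Ccl2, the monocyte chemokine, showed the same order of pools within CFA3D. It measured 0.785, 1.19 and 1.16 FPKM in saline, 0.540, 1.96 and 1.56 FPKM in CFA3D and 0.951, 0.636 and 0.768 FPKM in CFA6D, on about 19.9 to 64.3 read pairs a library. The CFA3D pools lay on both sides of the saline range. The log2 difference from saline was 0.20 (SE 0.40) in CFA3D and -0.37 (SE 0.40) in CFA6D; in CFA3D it was 0.71 without pool 1 (unadjusted p = 0.0268) and -0.13 without pool 2. Ccl2 was also the gene whose pattern over the 9 pools was most like that of Cxcl10 among 13174 gene sums averaging 1 FPKM or more, with a root mean square difference of 0.391 log2 units between the centred profiles.

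Il1b, the product of activated myeloid cells, measured 0.250, 0.341 and 0.757 FPKM in saline, 0.142, 1.29 and 0.290 FPKM in CFA3D and 0.448, 0.380 and 1.69 FPKM in CFA6D, on about 8.04 to 73.5 read pairs a library. In these sums each group held 1 high pool and 2 low ones, and the highest pool was 11.96 times the lowest. The coding transcript, ENSMUST00000028881, made up only 39.3% of the sum in saline pool 3. It measured 0.152, 0.340 and 0.298 FPKM in saline, so it had no high saline pool. Its log2 difference from saline was 0.34 in CFA3D and 0.78 in CFA6D (SE 0.62 each), with no call. The log2 difference of the gene sum from saline was 0.00 (SE 0.70) in CFA3D and 0.61 (SE 0.70) in CFA6D. The CFA6D difference was 0.01 without pool 6, the pool with 2723 FPKM of neutrophil markers. What part neutrophils had in the Il1b signal was not tested.

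Tnf measured 0.123, 0.0964 and 0.194 FPKM in saline, 0.362, 0.406 and 0.183 FPKM in CFA3D and 0.0145, 0.244 and 0.671 FPKM in CFA6D. CFA3D pools 1 and 2 lay above all saline pools and pool 3 among them, while CFA6D held both the lowest and the highest pool. These values rest on about 0.934 to 41.8 read pairs a library. The log2 difference from saline was 0.79 (SE 0.60, limma unadjusted p = 0.224, adjusted p = 0.997) in CFA3D and 0.41 (SE 0.60) in CFA6D; the latter was -0.24 without CFA6D pool 6 and 1.13 without CFA6D pool 4. On this scale the pseudocount of 0.1 FPKM understates differences of genes as low as Tnf.

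Il6 was at the limit of detection. It measured 0.0209, 0.104 and 0.0318 FPKM in saline, 0.0205, 0.105 and 0.0575 FPKM in CFA3D and 0.132, 0 and 0.0177 FPKM in CFA6D, on about 0 to 4.99 read pairs a library. The 0 of CFA6D pool 5 allows up to 0.0826 FPKM (3 read pairs, counting error only), which is above 5 of the other 8 values. A difference in Il6 between the groups was not detectable at this depth.

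The highest values of several genes fell in the same pools. Of the 9 members tested, 3 were highest in CFA3D pool 2 (Il33, Cxcl10 and Ccl2) and 3 in CFA6D pool 6 (Cxcl12, Il1b and Tnf), against 19.7% and 17.5% of all 16096 gene sums. Of 22 other chemokines tested, 8 were highest in CFA3D pool 2 and 7 in CFA6D pool 6, and of 14 other cytokines 3 and 4 were. Named after their values were seen, Cxcl9, a second CXCR3 ligand, measured 2.55 FPKM in CFA3D pool 2 against 0.0384 to 0.708 FPKM elsewhere, and Ppbp, a platelet chemokine, measured 18.5 FPKM in CFA6D pool 6 against 0.637 to 3.27 FPKM elsewhere. The 3 mice of a pool cannot be told apart.

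Receptors of the 10 ligands were all detected. All 15 receptor genes were tested, and 0 were called in any comparison; with no fold minimum, limma gave an unadjusted p under 0.05 to 0, 1 and 2 of them in CFA3D against saline, CFA6D against saline and CFA6D against CFA3D (4.45%, 11.1% and 7.39% of all gene sums), and the median log2 difference was 0.07, 0.04 and -0.12. Il1rap, the shared co-receptor of IL-1 and IL-33, measured 6.02, 5.18 and 5.79 FPKM in saline, 5.79, 5.68 and 5.49 FPKM in CFA3D and 3.67, 4.63 and 4.63 FPKM in CFA6D. All CFA6D pools lay below all others, by a log2 difference of -0.39 (SE 0.12) from saline (limma unadjusted p = 0.00889, adjusted p = 0.259) and -0.39 from CFA3D (unadjusted p = 0.0089, adjusted p = 0.616). In the same order of comparisons, the groups did not overlap for 0, 1 and 3 of the 15 receptors. The shares of all gene sums were 9.13%, 16.2% and 16.7%.

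Il6st, the signal-transducing gp130 subunit of the IL-6 receptor, measured 37.7, 45.4 and 41.3 FPKM in saline, 47.5, 37.9 and 47.3 FPKM in CFA3D and 34.0, 37.8 and 32.4 FPKM in CFA6D. It was the most abundant receptor, at a mean of 40.2 FPKM, and was lower in CFA6D than in CFA3D by -0.34 (SE 0.11, limma unadjusted p = 0.0136, adjusted p = 0.632), with CFA6D pool 5 just under the lowest CFA3D pool. Its partner Il6ra averaged 4.62 FPKM and differed from saline by 0.35 (SE 0.22) in CFA6D.

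The remaining receptors gave no p under 0.05. Cx3cr1, the fractalkine receptor of macrophages, measured 2.58, 3.55 and 2.58 FPKM in CFA3D and 0.913, 1.43 and 2.02 FPKM in CFA6D. These groups did not overlap (log2 difference -1.001, SE 0.47, limma unadjusted p = 0.0593, adjusted p = 0.676), which held for 16.7% of all gene sums. Saline spanned 0.702 to 2.88 FPKM. Csf1r, the receptor of IL-34, averaged 12.1 FPKM, with 11.99 to 15.2 FPKM in saline and 8.01 to 13.4 FPKM in CFA6D (-0.33, SE 0.20). Summed macrophage markers spanned 89.6 to 109 FPKM in saline, 73.9 to 137 FPKM in CFA3D and 54.2 to 87.9 FPKM in CFA6D; their part in the Cx3cr1 and Csf1r values was not tested. Tnfrsf1a averaged 14.3 FPKM, Tnfrsf1b 2.22, Il1r1 2.57, Ackr3 3.99, Ccr2 1.23 and Cxcr3 0.175 FPKM, and their log2 differences from saline ran from -0.36 to 0.35. Cxcr4 (12.1 FPKM against 3.69 to 6.38), Il18rap (3.89 against 0.201 to 0.428) and Il18r1 (0.603 against 0.0399 to 0.165) were high in CFA6D pool 6 and Il1rl1, the IL-33 receptor, spanned 0.208 to 1.23 FPKM.

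Among 9 genes that process or block the ligands, whose median log2 differences in the 3 comparisons were 0.06, 0.17 and 0.03, Il1r2, the decoy receptor of IL-1, was the only one called, in CFA6D against CFA3D (0.77% of all gene sums were called). It measured 0.915, 0.329 and 0.625 FPKM in saline, 0.580, 0.579 and 0.367 FPKM in CFA3D and 0.938, 0.855 and 6.14 FPKM in CFA6D. It rose against CFA3D by 1.61 (SE 0.66, limma unadjusted p = 0.0349, adjusted p = 0.659), and without CFA6D pool 6 the difference was 0.73 and no longer called. Il1rn, the IL-1 receptor antagonist, was likewise highest in that pool at 1.02 FPKM against 0.0223 to 0.35 FPKM elsewhere. The inflammasome genes Casp1, Nlrp3, Pycard and Gsdmd averaged 1.16, 0.346, 1.81 and 4.74 FPKM, the sheddases Adam10 and Adam17 20.1 and 6.22 FPKM and the IL-18 inhibitor Il18bp 3.33 FPKM, with log2 differences from saline within 0.56 in size and none with a p under 0.05.

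None of the other cytokines and chemokines tested was called in any of the 3 comparisons, and limma gave an unadjusted p under 0.05 to 1 of 14 cytokines and 1 of 22 chemokines, both in CFA6D against saline (11.1% of all gene sums). Of 27 other cytokines, 13 lay under a mean of 0.1 FPKM, among them Il2 and Il17a, listed at 0 in every pool. Mif, Cntf and Il16 were the most abundant. Mif measured 143, 131 and 128 FPKM in saline and 126, 116 and 109 FPKM in CFA6D (log2 difference -0.20, SE 0.08, limma unadjusted p = 0.0443, adjusted p = 0.436), and was that cytokine. Cntf, a survival factor made by Schwann cells, averaged 50.4 FPKM and Il16 31.9 FPKM, with differences from saline under 0.12 in size. Il23a, a subunit of IL-23 named after its values were seen, was left out of the test by the minimum mean, at 0.0953 FPKM; it measured 0.233, 0.189 and 0.181 FPKM in saline, 0.0427, 0.0356 and 0.0482 FPKM in CFA3D and 0, 0.0321 and 0.0965 FPKM in CFA6D. Both CFA groups lay below saline, where 9.13% (CFA3D) and 16.2% (CFA6D) of all tested gene sums did not overlap with saline. Il23a passed the minimum only where a low CFA pool was left out, that is, through its saline values. Those fits are therefore not read as a test. Of 29 other chemokines listed in the table, 22 were tested. The median log2 differences in the 3 comparisons were 0.12, 0.13 and -0.06 for the other cytokines and 0.06, -0.08 and -0.03 for the other chemokines. Ccl21a measured 2.59, 2.71 and 2.03 FPKM in saline and 3.25, 3.41 and 4.01 FPKM in CFA6D (0.53, SE 0.15, limma unadjusted p = 0.00723, adjusted p = 0.241), the chemokine counted above; it belongs to a family of near-identical copies among which reads can be split. Ccl3, a macrophage chemokine also named after its values were seen, fell short of the minimum too, at a mean of 0.0933 FPKM. It was listed at 0 in all 3 saline pools and measured 0.267, 0.283 and 0 FPKM in CFA3D and 0.0929, 0.0868 and 0.110 FPKM in CFA6D. Ccl3 passed the minimum only where a pool listed at 0 was left out, so those fits are not read as a test. Ccl27a averaged 16.2 FPKM, Ccl11 7.59 FPKM and Pf4 5.77 FPKM, with none of these passing.

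Of 12 genes that NF-κB and cytokine signals switch on, 1, Nfkbia, was called in CFA6D against saline (0.584% of all gene sums), the same gene in CFA6D against CFA3D (0.77% of all) and 0 in CFA3D against saline. With no fold minimum, limma gave 0 of them an unadjusted p under 0.05 in CFA3D against saline and 3 in CFA6D against saline, all higher, where 8.22% of all gene sums were higher at that p. In CFA6D against saline, 7 of the 12 were higher and 5 lower. Their median log2 difference there was 0.03, the same as that of all gene sums (0.03). It was 0.11 in CFA3D against saline and -0.01 in CFA6D against CFA3D. In CFA6D, 3 of the 12 did not overlap with saline, against 16.2% of all gene sums. Nfkbia, whose promoter is shown above, measured 15.9, 14.6 and 12.1 FPKM in saline, 16.1, 18.3 and 10.1 FPKM in CFA3D and 27.7, 34.5 and 32.2 FPKM in CFA6D. All CFA6D pools lay above all others, and the gene rose by 1.15 (SE 0.20, limma unadjusted p = 0.000271, adjusted p = 0.103) against saline and by 1.12 (unadjusted p = 0.000323, adjusted p = 0.476) against CFA3D. The 10 neuron markers summed to 1359 to 1786 FPKM in saline and 1739 to 2042 FPKM in CFA6D, and their part in this was not tested. The lowest Nfkbia difference from saline with 1 library left out was 1.04. The Cxcl10 difference in CFA6D was 0.04, and Il6, which has the motif too, was too low to test. Nfkb2 and Tnfaip3, the other response genes with a match in their windows, differed from saline by -0.02 and -0.01 in CFA6D. The window of Zfp36, described next, held no match. Whether the motif had a part in these values was not tested.

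Zfp36, which encodes tristetraprolin, a protein that speeds the decay of Tnf mRNA, measured 3.80, 3.79 and 4.14 FPKM in saline, 4.52, 5.32 and 3.35 FPKM in CFA3D and 6.60, 9.32 and 7.96 FPKM in CFA6D. CFA6D lay above all other pools, by 0.99 against saline (SE 0.18, limma unadjusted p = 0.000313, adjusted p = 0.103), just under the fold minimum of a call. Relb, an NF-κB subunit, was higher by 0.35 (SE 0.13, unadjusted p = 0.0266, adjusted p = 0.37). Socs3, the feedback inhibitor of IL-6 family signals, measured 4.60, 5.97 and 4.69 FPKM in CFA3D and 3.56, 2.79 and 3.43 FPKM in CFA6D, lower by -0.62 (SE 0.22, limma unadjusted p = 0.0204, adjusted p = 0.641), with saline at 2.74 to 5.31 FPKM. Nfkb1 and Vcam1 averaged 14.1 and 5.01 FPKM and differed from saline by -0.07 to 0.30 on the log2 scale.

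**Figure D4:**
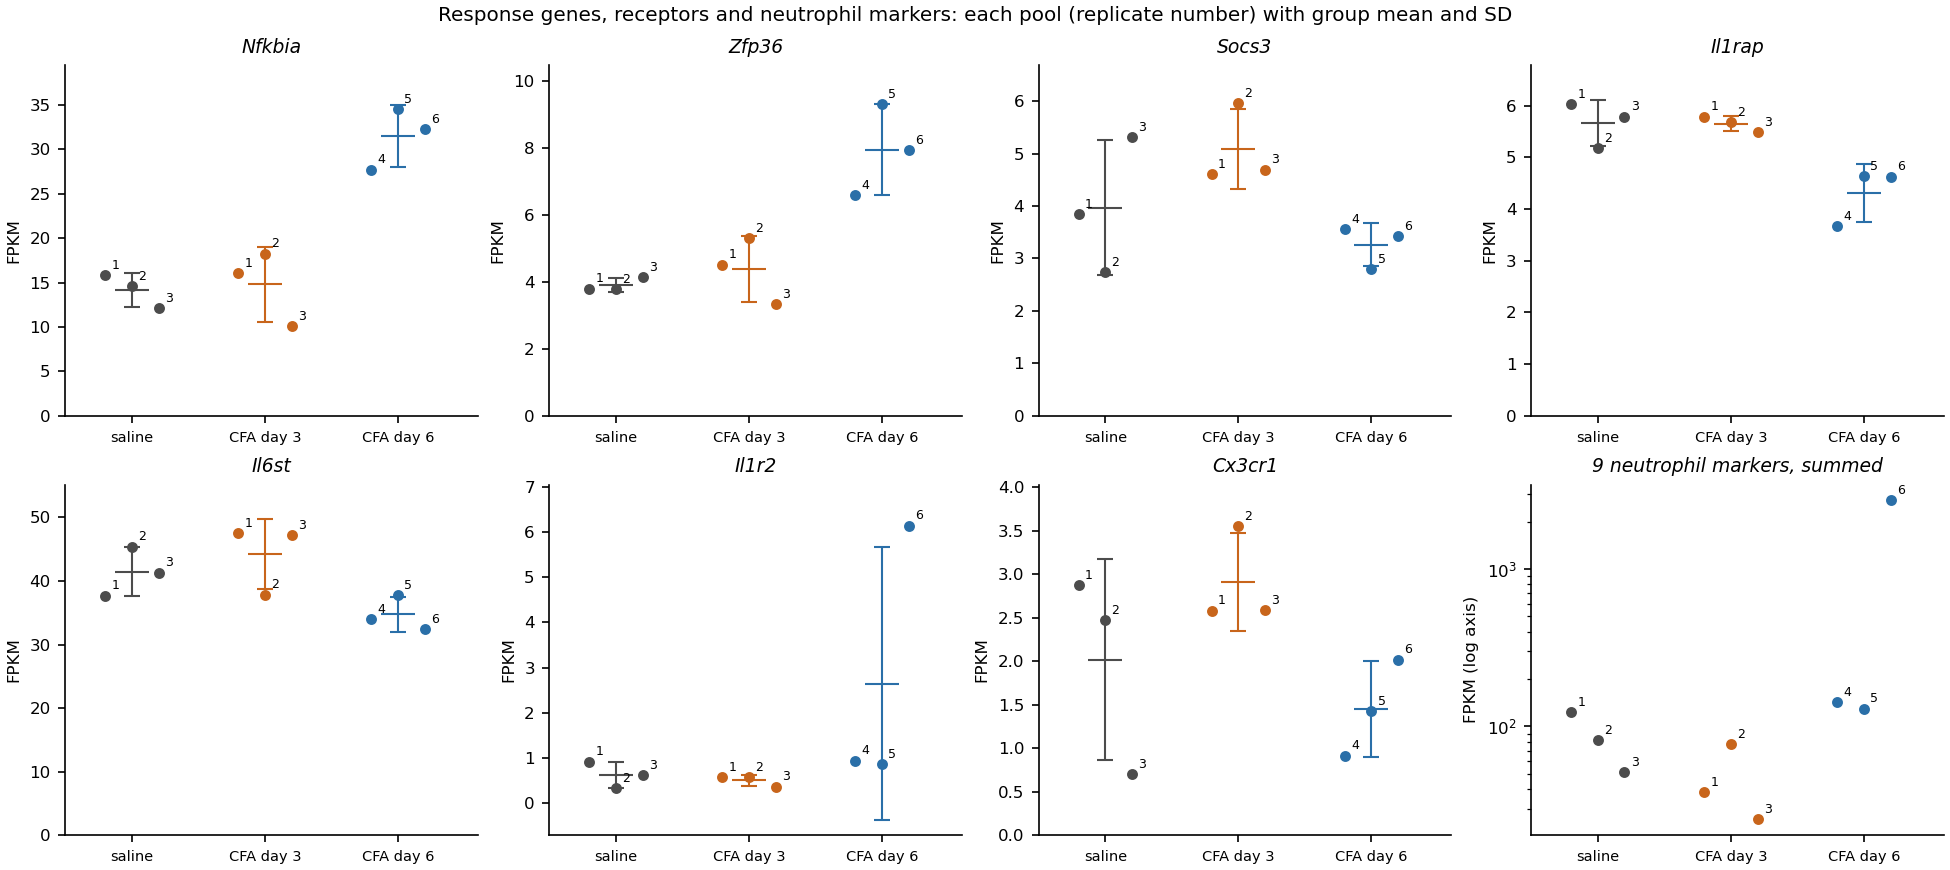
FPKM of 3 response genes, 4 receptor genes and the sum of 9 neutrophil markers (last panel, log axis, pools only) in the 3 groups; points are pools with their replicate number, bars the group mean and SD (n = 3). Nfkbia and Zfp36 are higher and Il1rap lower in all 3 CFA6D pools than in any other pool, whereas Il1r2 is high in CFA6D pool 6, the pool with 2723 FPKM of neutrophil markers.

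For the 7 members with a mean of at least 1 FPKM, the gene with the most similar profile over the 9 pools was found by the root mean square difference of centred log2 values. These were Mtr for Il34 (0.036), Npas3 for Il33 (0.102), Stx11 for Cxcl12 (0.202), Slc1a2 for Cx3cl1 (0.196), Lama1 for Il18 (0.132), Ccl2 for Cxcl10 (0.391) and Eml4 for Ccl2 (0.292). Each is the nearest of 13174 gene sums and is given as a description only. Cx3cl1 and Slc1a2, a glutamate transporter, were both highest in saline pool 3, at 9.37 and 24.5 FPKM, and both lowest in CFA6D pool 4, at 1.26 and 2.98 FPKM.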

How the data were processed

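Trigeminal ganglion RNA of 9 pools was depleted of ribosomal RNA and sequenced from strand-specific libraries. Per the study's methods, reads were trimmed with Trimmomatic, mapped to GRCm38 and counted in CLC Genomics Workbench; the labels also name Bowtie 0.12.2 and mm8. The deposited mRNA table holds FPKM per transcript, made by the authors; how reads were shared between transcripts is not given in the sources used here. Tables of other RNA classes were not used.

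Transcripts were joined to GENCODE M21 (101539 of 102122 matched), and FPKM was summed by gene name. Gene sums averaging 0.1 FPKM or more were fitted with limma 3.58.1 (R 4.3.3) with a trend, on log2(FPKM + 0.1), all 9 pools in one fit, with Benjamini-Hochberg adjustment over all gene sums; transcripts were fitted likewise. The fit was tested on simulated data. The pools' p-values cover the spread between pools only.

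All 10 members, all receptors and all processing genes were named; of the other lists, genes with an unadjusted p under 0.05 (at most 6 a list) and the 3 highest in saline. The members and lists were chosen with earlier results of these data known. Alternatives were 2 other pseudocounts, other filters, quantile normalization, only the groups compared, the top transcript, a replicate block and leaving out libraries.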

Additional observations from a re-analysis of the deposited data

Results flagged for a closer look

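Results were singled out where CFA6D differed from CFA3D, that is, where the limma test between them (3 pools a group) gave a named gene an unadjusted p under 0.05. Without saline at day 6, a change in the effect of CFA cannot be told apart from a difference of day. This held for 7 genes, and for none did the adjusted p fall under 0.05. Nfkbia, Zfp36 and Socs3 were named in part because of such a p, so the count of 7 cannot be set against the share of all gene sums. The log2 difference of CFA6D from CFA3D was 1.12 for Nfkbia (SE 0.20, adjusted p = 0.476), 0.85 for Zfp36 (SE 0.18, adjusted p = 0.476), -0.39 for Il1rap (SE 0.12, adjusted p = 0.616), -0.34 for Il6st (SE 0.11, adjusted p = 0.632) and -0.62 for Socs3 (SE 0.22, adjusted p = 0.641). In these 5 genes no CFA6D pool overlapped a CFA3D pool, which held for 16.7% of all gene sums. It was 1.61 for Il1r2 (SE 0.66, adjusted p = 0.659), also without overlap but carried by CFA6D pool 6, and -0.63 for Il33 (SE 0.26, adjusted p = 0.666), where 1 of 3 CFA6D pools lay within the CFA3D range.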

How the results depend on the processing

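Counts of called members were 0 in all 3 comparisons under every other pseudocount, filter, normalization and set of groups tried. Leaving out 1 library gave 0 to 1 called members in CFA3D against saline (1 without CFA3D pool 1, Cxcl10), 0 to 1 in CFA6D against saline (1 without CFA6D pool 4, Tnf) and 0 to 2 in CFA6D against CFA3D (2 without CFA3D pool 1, Cxcl10 and Ccl2). Members with an unadjusted p under 0.05 numbered 0 in CFA3D against saline but 1 in a fit of the groups compared alone (Tnf), and 0 to 2 with 1 library left out. They numbered 0 in CFA6D against saline but 1 after quantile normalization (Il33) and 0 to 1 with 1 library left out. They numbered 1 in CFA6D against CFA3D, which is also the count with no fold minimum, but 0 in a fit of the groups compared alone and 0 to 2 with 1 library left out. Called transcripts fell to 0 in CFA6D against saline and to 0 in CFA6D against CFA3D with a pseudocount of 1 FPKM, and with 1 library left out ranged 1 to 2 in CFA3D against saline, 0 to 2 in CFA6D against saline and 1 to 4 in CFA6D against CFA3D. The causes were not tested.

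The replicate numbers did not pair the saline and CFA3D pools (correlations of deviations 0.0873, -0.0802 and 0.03 for numbers 1 to 3). A fit with the number as a replicate block gave 1 member with an unadjusted p under 0.05 in CFA3D against saline (Cxcl10) and 0 called members, and 115 called gene sums in place of 55.

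Over single members and alternatives, 395 values kept their direction and side of the p threshold, 45 changed sign, 13 moved past the threshold and 9 no longer passed it. With saline pool 3 and CFA6D pool 6 both left out, signs turned to -0.0773 for Tnf in CFA6D against saline, 0.37 for Il1b in CFA3D against saline, -0.35 for Cxcl12 in CFA6D against saline, 0.17 for Cx3cl1 in CFA3D against saline, -0.0836 for Il34 in CFA3D against saline. With a pseudocount of 1 FPKM, signs turned to 0.0648 for Il1b in CFA3D against saline, 0.0123 for Cxcl12 in CFA6D against CFA3D. With quantile normalization, signs turned to 0.0718 for Il1b in CFA3D against saline, 0.036 for Cxcl12 in CFA6D against CFA3D, -0.0462 for Il34 in CFA3D against saline. With the transcript with the highest mean in place of the gene sum, signs turned to 0.34 for Il1b in CFA3D against saline, -0.18 for Cxcl12 in CFA6D against saline, -0.26 for Il34 in CFA6D against CFA3D, -0.0849 for Il18 in CFA6D against saline, -0.12 for Il18 in CFA6D against CFA3D. With 1 library left out, the log2 difference ranged -0.24 to 1.13 for Tnf in CFA6D against saline, -1.03 to 0.35 for Tnf in CFA6D against CFA3D, -0.73 to 0.53 for Il1b in CFA3D against saline, -0.13 to 0.71 for Ccl2 in CFA3D against saline, -0.12 to 0.17 for Cxcl10 in CFA6D against saline, -0.34 to 0.55 for Cxcl12 in CFA6D against saline, -0.57 to 0.32 for Cxcl12 in CFA6D against CFA3D, -0.63 to 0.17 for Cx3cl1 in CFA3D against saline, -0.96 to 0.0305 for Cx3cl1 in CFA6D against saline, -0.61 to 0.38 for Cx3cl1 in CFA6D against CFA3D, -0.12 to 0.30 for Il33 in CFA3D against saline, -0.0836 to 0.11 for Il34 in CFA3D against saline, -0.0413 to 0.16 for Il34 in CFA6D against saline, -0.0343 to 0.12 for Il34 in CFA6D against CFA3D, -0.13 to 0.34 for Il18 in CFA3D against saline, -0.11 to 0.38 for Il18 in CFA6D against saline, -0.19 to 0.29 for Il18 in CFA6D against CFA3D. With a pseudocount of 1 FPKM, called gene sums over the whole table numbered 9, 20 and 36 in place of 55, 94 and 124 in CFA3D against saline, CFA6D against saline and CFA6D against CFA3D; with a mean of 1 FPKM required they numbered 18, 37 and 60, and with the top transcript 146, 201 and 203. The share of called gene sums that were higher was 21.8%, 68.1% and 82.3%, but 11.1%, 90.0% and 86.1% with the pseudocount of 1 FPKM, 15 of 50, 62.7% and 70.8% after quantile normalization and 55.5%, 63.7% and 59.1% with the top transcript. Tnf and Il6 rest on under 50 read pairs a library, Il1b on about 8.04 to 73.5 and Ccl2 on about 19.9 to 64.3, which limits what could be detected.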
